A study of Mus musculus with 24 samples.

Results

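The IFIT family (interferon-induced proteins with tetratricopeptide repeats) was read from RNA-Seq counts of 4 tissues of Trex1-/- mice: tongue, muscle, stomach and heart. Its 6 members, Ifit1, Ifit2, Ifit3, Ifit3b, Ifit1bl1 and Ifit1bl2, were taken by gene symbol from the 54532 genes counted. In each tissue, 3 control samples were set against 3 samples from mice given SN-011, a STING antagonist, which makes 8 groups and 24 samples. All mice, controls included, lacked Trex1, the DNA exonuclease whose loss activates the cGAS-STING pathway, through a whole-body knockout bred on C57BL/6J from heterozygous parents. The groups' labels call the controls untreated and give SN-011 at 5 mg/kg, 3 times a week for 4 weeks. The study's methods instead describe mice aged 1 month that received 10 mg/kg by intraperitoneal injection each day for 2 weeks, with 1% Tween 80 in PBS as the vehicle. There was no wild-type group here, so the values compare treated with untreated knockout mice only. Neither source says whether tissues with the same replicate number came from the same mouse, so the p-values cover the spread between these samples.

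Type I interferon signals through its receptor to the transcription factor complex ISGF3, which binds interferon-stimulated response elements (ISREs) in promoters. IFIT genes are nearly silent in most resting cells and are among the genes most strongly induced by this route. Ifit1 encodes a protein that grips the end of RNAs whose cap lacks the host's methyl marks and blocks their translation, Ifit2 encodes a protein that binds AU-rich RNA and is linked to cell death, and Ifit3 and its close copy Ifit3b encode partners of the other IFIT proteins. Ifit1bl1 and Ifit1bl2 are mouse genes of the Ifit1 type whose roles are less known.

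The 6 genes lie together on chromosome 19 over 99316 bases of GRCm38 (positions 34550694 to 34650009), with no other protein-coding gene between them. Ifit2, Ifit3, Ifit3b and Ifit1 are on the plus strand, and Ifit1bl1 and Ifit1bl2 on the minus strand. Ifit1bl2 and Ifit1 start head to head, with 127 bases between their first exons. Reads of 150 bases can be shared by Ifit3 and Ifit3b: 296 of the 1596 stretches of that length in Ifit3 transcripts (18.5%) and of the 1851 in Ifit3b transcripts (16.0%) occur in both. Their counts are therefore less certain than those of Ifit2 and Ifit1bl1, which shared 0 such stretches with another gene's transcripts. Ifit1 and Ifit1bl2 shared 31.

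The promoters of 5 members are shown with the matches found, if any, to the core of the ISRE that ISGF3 binds. The motif searched was GAAANNGAAA on either strand (TTTCNNTTTC on the other) in the 250 bases before each start site of the RefSeq promoter table (GRCm38.p6), which held all 6 members in 9 windows. The printed Ifit1 sequence stops after 232 bases, before the more upstream start in the GENCODE annotation. Capitals mark each match, and the sequence reads from 5′ to 3′ on the gene's own strand.
Ifit1, plus strand, chr19:34640639-34640870: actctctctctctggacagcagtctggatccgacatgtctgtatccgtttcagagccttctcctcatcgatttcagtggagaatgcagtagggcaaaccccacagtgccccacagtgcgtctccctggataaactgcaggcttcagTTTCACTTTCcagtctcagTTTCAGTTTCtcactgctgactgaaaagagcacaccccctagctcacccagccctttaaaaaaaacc
Ifit2, plus strand, chr19:34550444-34550693: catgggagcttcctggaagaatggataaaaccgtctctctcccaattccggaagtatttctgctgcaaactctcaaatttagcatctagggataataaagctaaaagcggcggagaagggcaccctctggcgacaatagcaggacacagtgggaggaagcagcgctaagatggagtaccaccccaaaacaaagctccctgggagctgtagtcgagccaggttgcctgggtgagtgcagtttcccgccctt
Ifit3, plus strand, chr19:34583279-34583528: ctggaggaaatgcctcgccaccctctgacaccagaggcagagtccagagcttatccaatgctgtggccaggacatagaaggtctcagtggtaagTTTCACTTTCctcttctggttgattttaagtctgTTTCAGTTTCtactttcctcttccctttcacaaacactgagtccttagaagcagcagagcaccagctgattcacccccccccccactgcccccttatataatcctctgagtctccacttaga
Ifit3b, plus strand, chr19:34607707-34607956: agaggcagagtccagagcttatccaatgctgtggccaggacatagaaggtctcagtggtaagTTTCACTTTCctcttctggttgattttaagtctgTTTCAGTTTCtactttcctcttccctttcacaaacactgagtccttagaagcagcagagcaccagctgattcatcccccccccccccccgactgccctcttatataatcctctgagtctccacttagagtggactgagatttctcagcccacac
Ifit1bl1, minus strand, chr19:34601969-34602218: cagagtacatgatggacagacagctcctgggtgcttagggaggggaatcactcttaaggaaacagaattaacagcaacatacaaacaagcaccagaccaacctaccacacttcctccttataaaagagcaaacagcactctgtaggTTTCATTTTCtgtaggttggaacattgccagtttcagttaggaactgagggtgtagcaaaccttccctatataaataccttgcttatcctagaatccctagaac
Ifit1, Ifit3 and Ifit3b each held 2 matches and Ifit1bl1 held 1 in each of its 2 windows, while neither of the 2 windows of Ifit2 held any. The promoter of Ifit1bl2 faces that of Ifit1, and its 2 matches are the same bases as the 2 of Ifit1, read on the other strand. Ifit3 and Ifit3b were identical over a stretch of 169 bases that holds both of their matches. Of all 32851 RefSeq windows of this length, 2.98% held at least 1 match and 0.180% held 2 or more. A match describes the letters only, and whether a factor binds there was not measured. An element outside these windows, or one that departs from the searched letters, would be missed, so no match in Ifit2 does not show that it lacks an ISRE.

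Total counts were 14253416 to 18443329 per sample, at which 3 counts correspond to 0.163 to 0.210 CPM (counts scaled to the library size). All 17 tissue markers checked, such as Myh6 in heart and Atp4a in stomach, had their highest mean level in the tissue named by the label. Trex1 had 0 counts in all 24 samples, and since its annotation overlaps Atrip on the same strand, a count of 0 does not by itself show the genotype. Only 11546 genes were detected in muscle SN-011 replicate 2, while each of the other samples had 19798 or more. Control replicate 1 of each tissue carried Xist (3060 to 13811 counts), whereas the other 20 samples had at most 20 counts, so each control group held 1 female-type sample and the SN-011 groups none. Levels between tissues are given as RPKM (CPM divided by the length of the exons in kilobases) on 1 scale for all samples, and levels within a tissue as CPM scaled in that tissue alone.

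To describe where the family was expressed in the absence of SN-011, the control samples of the 4 tissues were compared. Ifit3 had the highest mean level per length of the 6 in the heart, muscle and tongue, and Ifit1bl2 the lowest in every tissue. In the stomach Ifit1 had the highest mean through control replicate 1, while Ifit1bl1 was above it in the other 2 controls. The members did not share 1 order of tissues. Ifit2, Ifit3 and Ifit3b were highest in the heart, whereas Ifit1bl1 was highest in the stomach.

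Ifit2 stood at 71.7, 69.2 and 90.2 RPKM in the 3 heart controls, 17.4, 23.7 and 15.8 in the tongue, 9.41, 8.60 and 13 in muscle, and 4.30, 7.22 and 9.66 in stomach. The heart samples did not overlap those of any other tissue. The log2 difference from heart to stomach was 3.45 (SE 0.38, edgeR adjusted p = 6.16e-07), a fold of 10.9, and heart also exceeded its neighbour in the order, the tongue, by 2.02 (SE 0.36, edgeR adjusted p = 0.000251). Muscle and stomach did not differ beyond their spread (edgeR adjusted p = 0.203). Tongue and muscle did not overlap but missed the threshold (log2 difference of muscle minus tongue -0.88, edgeR adjusted p = 0.0570). With the replicate number as a block, which pairs these tissues' controls, it passed (-0.90, edgeR adjusted p = 0.0217), as it did when only control samples were fitted (-0.83, 0.0361).

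Ifit3 stood at 314, 353 and 401 RPKM in heart controls, 192, 183 and 121 in the tongue, 124, 134 and 166 in muscle, and 88.9, 98.6 and 88.9 in stomach. Heart was above tongue by 1.11 on the log2 scale (SE 0.23, edgeR adjusted p = 0.00118), tongue and muscle did not differ (0.477), and muscle was above stomach by 0.62 (SE 0.23, edgeR adjusted p = 0.0306). Scaling by library size alone turned the sign of this last difference (log2 difference of stomach minus muscle 0.18), as it did for Ifit2 (0.32). That scaling moved the median of all genes between these tissues by 0.79, and the Ifit3 call was also lost with DESeq2's size factors, without the filter on low counts, and without muscle control replicate 2 or 3 or stomach control replicate 1 or 3 (stomach minus muscle -0.65 to -0.49 in the last 4). Ifit3b followed the same order with muscle ahead of tongue: 62.7 ± 14.7 (SD, n = 3) in heart, 35.7 ± 9.27 in muscle, 28.0 ± 3.42 in tongue and 16.6 ± 2.71 in stomach. Its heart level passed the test against each other tissue, muscle and tongue did not differ (edgeR adjusted p = 0.307), and tongue and stomach did (0.0255), a call lost without either tongue control replicate 1 or 2 or stomach control replicate 1 or 3 (stomach minus tongue -0.76 to -0.65).

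Ifit1bl1 had a different pattern. The 3 stomach controls held 130, 164 and 108 RPKM, against 3.80, 20.9 and 13.4 in the tongue, 8.97, 9.48 and 12.4 in the heart, and 1.43, 3.85 and 2.10 in muscle. All stomach samples were above every sample of the other tissues. Stomach exceeded the tongue by 3.4 on the log2 scale (SE 0.65, edgeR adjusted p = 0.000370), the heart by 3.70 (SE 0.66, 0.000147) and the muscle by 5.77 (SE 0.74, 1.78e-06), and tongue and heart did not differ (0.749). The tissue means spanned 54.5-fold for Ifit1bl1, against 3.78-fold for Ifit3b and 3.87-fold for Ifit3. RNA of stomach markers was present in some control samples of other tissues: the summed level of Atp4a, Atp4b, Gif, Tff1 and Muc5ac was 19.3, 461 and 254 CPM in the tongue controls 3.86, 440.0 and 29.0 CPM in the heart controls and 6.48, 105 and 31.6 CPM in the muscle controls. The tongue and muscle controls come in the same order by this sum as by Ifit1bl1, and the heart controls do not. The part of these reads in the Ifit1bl1 levels was not tested.

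Ifit1 was at 259, 138 and 103 RPKM in stomach controls, 75.2, 147 and 133 in the tongue, 72.9, 99.6 and 109 in the heart, and 26.5, 24.1 and 35.0 in muscle. Only the muscle stood apart: it was below the stomach by 2.55 (SE 0.35, edgeR adjusted p = 4.48e-06), below the tongue by 2.05 (SE 0.35, 7.91e-05) and below the heart by 1.72 (SE 0.34, 0.000579) on the log2 scale. Stomach, tongue and heart did not differ beyond their spread, with edgeR adjusted p = 0.0514 for stomach and heart. Ifit1bl2 was at 1.17 ± 0.0877 RPKM in heart, 0.624 ± 0.447 in tongue, 0.367 ± 0.00694 in stomach and 0.219 ± 0.233 in muscle (SD, n = 3), and only heart and muscle differed (edgeR adjusted p = 0.0151). Without muscle control replicate 1, the heart and muscle calls of Ifit3b (log2 difference 0.61), Ifit1bl1 (1.78) and Ifit1bl2 (2.19) were lost. In all, 23 of 36 tests of a member between a pair of tissues passed. Heart against muscle passed for 6 of 6 members, beside 33.7% of all 19731 genes. The count was 4 against 42.5% for heart with stomach, and 3 against 29.1% for heart with tongue. It was 4 against 51.6% for stomach with muscle, 4 against 36.9% for stomach with tongue and 2 against 38.1% for muscle with tongue.

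**Figure D1:**
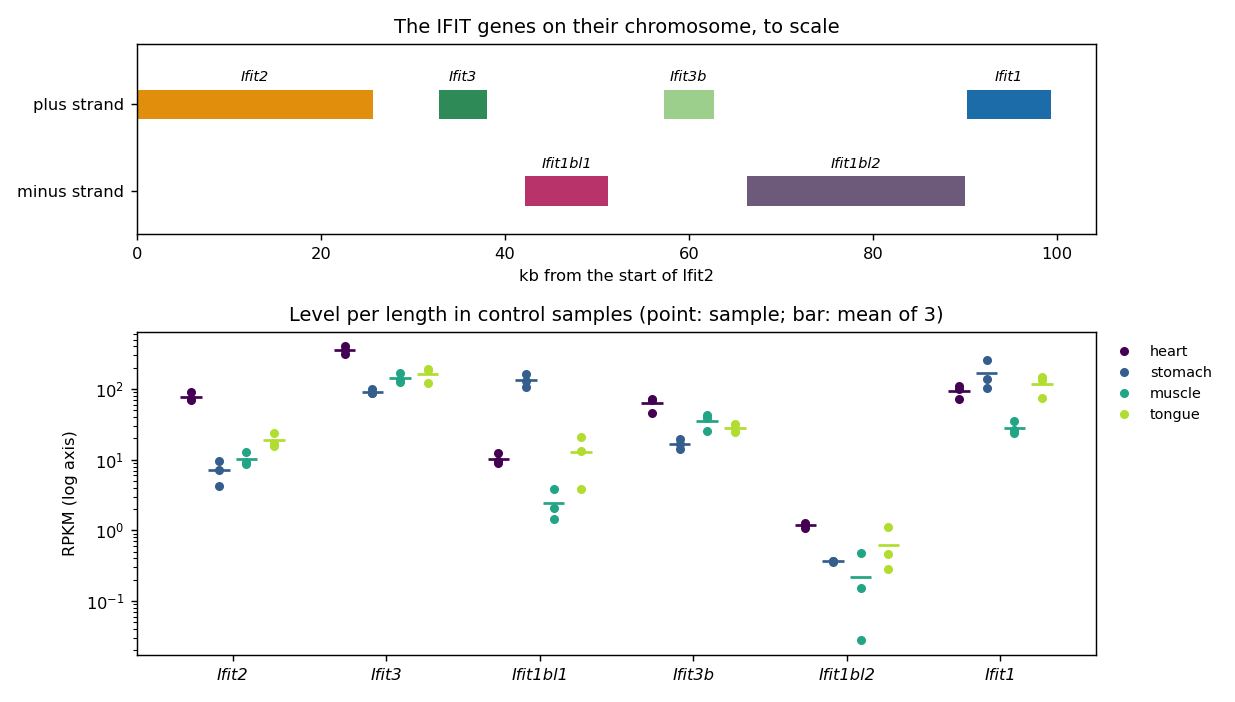
Top: the 6 genes to scale by strand, in kb from the start of Ifit2. Bottom: RPKM (log axis) in the control samples of each tissue, with points for samples and bars for the mean of 3; the stomach samples of Ifit1bl1 (108 to 164 RPKM) lie above all its others, and the heart samples of Ifit2 (69.2 to 90.2) lie above all its others.

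The next comparisons ask how the family changed when the STING antagonist was given. The fitted value of every member was lower with SN-011 in every tissue in which it could be tested, 23 of 23 values, while 49.8% to 55.5% of all genes tested had a negative value. No member passed an adjusted p of 0.05 in edgeR's quasi-likelihood test in any tissue. At an unadjusted p under 0.05, 18 of the 23 values were lower and 0 were higher. Of all genes, 5.80% (muscle) to 11.6% (heart) were lower at that p. For 13 of the 23, all 3 SN-011 samples were below all 3 control samples, and for none were all above. All 3 were below for 8.37% (tongue) to 19.8% (muscle) of all genes. The members are neighbouring genes and the tissues may come from the same mice, so the 23 values are not separate observations. A comparison of 3 samples with 3 by exact permutation cannot give a p below 0.1, so single values cannot pass by that route.

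**Figure D2:**
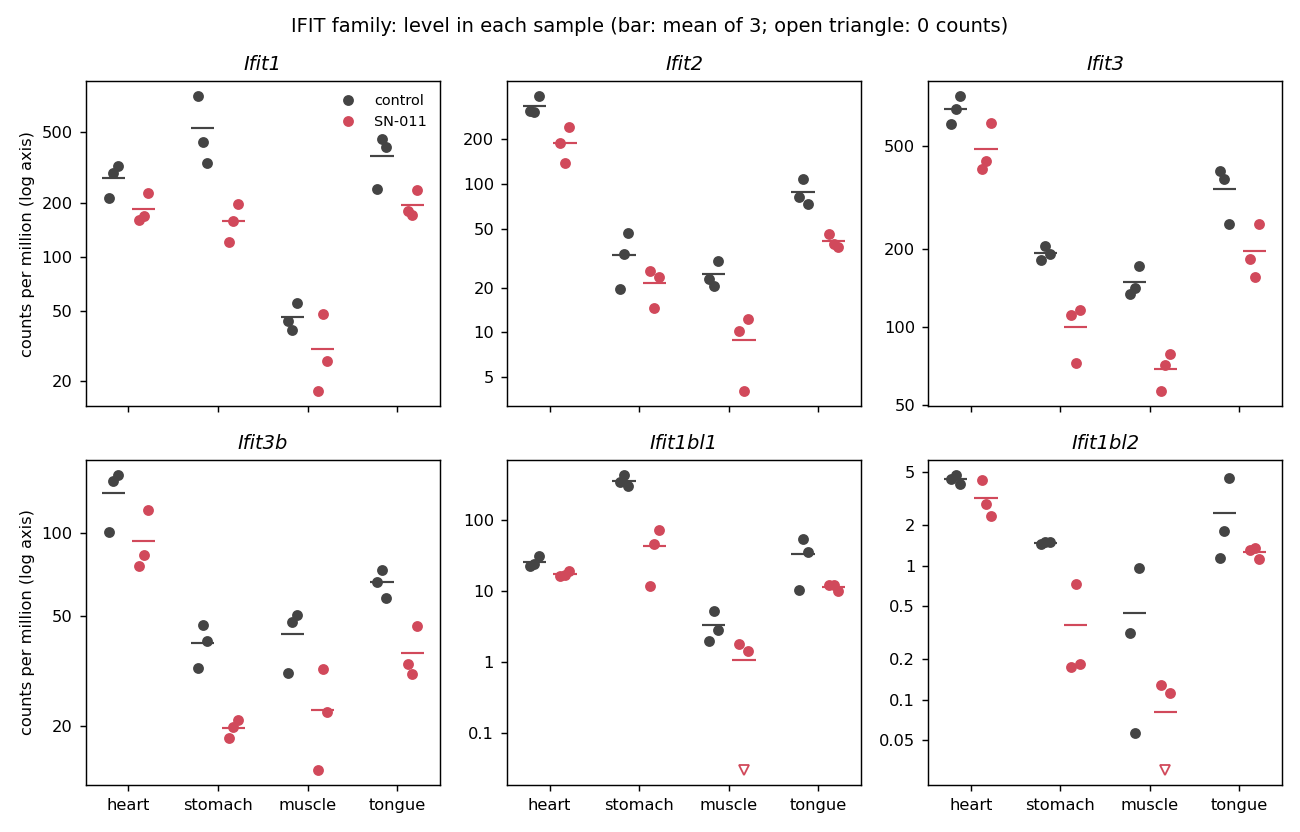
CPM (log axis) of each member in each sample, by tissue, for control (grey) and SN-011 (red), with bars for the mean of 3 and open triangles for samples with 0 counts. The 2 groups are widest apart for Ifit1bl1 in the stomach, where the controls lie between 302 and 441 CPM and the SN-011 samples between 11.9 and 72.0.

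The stomach held the largest fitted difference of a single member and the largest median, -1.37 on the log2 scale. Ifit1bl1 was at 343, 441 and 302 CPM in controls and at 11.9, 45.8 and 72.0 CPM in SN-011 samples. The lowest control was more than 4 times the highest treated sample. The fitted log2 difference was -3.06 (SE 0.60, edgeR adjusted p = 0.0672), a level 8.37-fold lower, and leaving out any 1 sample kept it between -3.65 and -2.61. Its adjusted p ran from 7.21e-06 to 0.241 over the 16 alternatives. Ifit1 was at 802, 439 and 338 CPM in controls and 121, 159 and 198 CPM with SN-011, also without overlap, a log2 difference of -1.72 (SE 0.41, edgeR adjusted p = 0.0767). Ifit3b went from 32.5, 46.3 and 40.6 to 18.1, 19.8 and 21 CPM (log2 difference -1.02, SE 0.23, edgeR adjusted p = 0.0744).

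Ifit3 was at 181, 205 and 192 CPM in stomach controls and 111, 72.7 and 116 CPM with SN-011 (log2 difference -0.95, SE 0.27, edgeR adjusted p = 0.102). Ifit1bl2 was low in both groups, at 1.45 to 1.5 CPM in controls and 0.176 to 0.724 CPM with SN-011 (log2 difference -2.02, SE 0.77, edgeR adjusted p = 0.160). Ifit2 alone overlapped between the groups, at 19.6, 33.8 and 46.9 against 25.9, 14.5 and 23.7 CPM (log2 difference -0.65, SE 0.36, edgeR adjusted p = 0.301). So 5 of 6 members had all treated samples below all controls, where 15.2% of all 17031 genes tested did. The same 5 had an unadjusted p under 0.05, against 11.4% of all genes that were lower at that p. At an adjusted p of 0.05, 0 of 6 members and 0% of all genes passed in this test, while edgeR's exact test and DESeq2 each passed 4 members (Ifit1, Ifit3, Ifit3b and Ifit1bl1). The makeup of the samples moved with treatment as well: the summed level of the 4 keratins checked for tongue (Krt13, Krt4, Krt5 and Krt14) was 232, 197 and 106 CPM in stomach controls and 1440, 437 and 870.0 CPM with SN-011, without overlap. The 5 stomach markers summed to 8980, 7530 and 5330 CPM in controls and 2040, 5650 and 3950 CPM with SN-011. The part of these shifts in the IFIT values was not tested, and in bulk tissue fewer cells of a type and less RNA per cell cannot be told apart.

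In the heart the 6 members were lower by similar amounts, with fitted log2 differences between -0.83 and -0.46 and a median of -0.56, against -0.01 over all 16151 genes tested. Ifit2 was at 311, 305 and 394 CPM in controls and 189, 139 and 243 CPM with SN-011 (log2 difference -0.83, SE 0.21, edgeR adjusted p = 0.0864). Ifit1bl1 was at 22.4, 24.1 and 31.1 against 16.4, 17.1 and 19.3 CPM (log2 difference -0.55, SE 0.16, edgeR adjusted p = 0.107). These were the 2 of 6 members whose groups did not overlap, against 13.1% of all genes with every treated sample below every control.

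Ifit3 was the most abundant member there, at 605, 692 and 778 CPM in controls and 406, 437 and 609 CPM with SN-011, so that the highest treated sample passed the lowest control (log2 difference -0.51, SE 0.18, edgeR adjusted p = 0.152). Ifit1 had 278 ± 56.9 against 187 ± 36.3 CPM and Ifit3b 140.0 ± 33.4 against 93.3 ± 23.9 CPM (mean ± SD, n = 3). Ifit1bl2, at 4.4 ± 0.349 against 3.19 ± 1.05 CPM, was the 1 member with an unadjusted p above 0.05. The other 5 of 6 were lower at an unadjusted p under 0.05, as were 11.6% of all genes. At an adjusted p of 0.05, 0 of 6 members passed, and 0.848% of all genes did. DESeq2 passed 4 members and edgeR's exact test 1, Ifit2. The 13 immune cell markers summed to 470.0, 297 and 664 CPM in heart controls and 283, 348 and 351 CPM with SN-011; 11 of the 12 tested had a negative value. The 4 heart muscle markers summed to 28100, 31900 and 22200 CPM in heart controls and 37900, 38800 and 32600 CPM with SN-011, without overlap, and the 5 stomach markers to 0.804 to 7.62 CPM in the treated hearts. The part of these sums in the IFIT values was not tested.

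In the muscle the summed level of the family in controls was lowest of the 4 tissues, and Ifit1bl2, with at most 19 counts in a sample, was not tested. Ifit3 was at 134, 141 and 172 CPM in controls and 56.6, 71.5 and 79.1 CPM with SN-011 (log2 difference -1.11, SE 0.17, edgeR adjusted p = 0.0948). Ifit2 was at 22.9, 20.4 and 30.4 against 10.2, 3.99 and 12.3 CPM (log2 difference -1.47, SE 0.42, edgeR adjusted p = 0.222). Neither gene overlapped between the groups. Ifit1bl1 did not overlap either, but at 2.00, 5.25 and 2.82 against 1.81, 0 and 1.42 CPM its standard error was 1.24 around a log2 difference of -1.62. Ifit1 overlapped because SN-011 replicate 2, the library with few genes detected, held 47.7 CPM, against 17.6 and 26.2 CPM in the other treated samples. Ifit3b overlapped through the same library, with 32.2 CPM against 13.8 and 22.5 CPM.

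With all samples, 0 of the 5 muscle members tested passed an adjusted p of 0.05, where 0.0141% of all 14198 genes did, and 3 of 5 were lower at an unadjusted p under 0.05, against 5.80% of all genes. The groups were apart for 3 of 5, against 19.8% of all genes. Without SN-011 replicate 2, 4 members passed edgeR's quasi-likelihood test: Ifit3 (log2 difference -1.14, adjusted p = 0.0297), Ifit2 (-1.12, 0.0340), Ifit1 (-1.07, 0.0448) and Ifit3b (-1.24, 0.0496). In that fit 1103 of all genes passed, against 2 with all samples. With all samples, DESeq2 and edgeR's exact test each passed Ifit2 and Ifit3. The 5 stomach markers summed to 3.63, 0 and 4.13 CPM in treated muscle, below each control, and the 4 muscle markers were above each control; their part was not tested.

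In the tongue the lowest p-values belonged to Ifit2, at 81.9, 109 and 73.2 CPM in controls and 46.1, 39.7 and 37.5 CPM with SN-011 (log2 difference -1.10, SE 0.18, edgeR adjusted p = 0.263). Ifit3b was at 66.7, 73.7 and 58.3 against 33.5, 30.8 and 46.1 CPM (log2 difference -0.85, SE 0.19, edgeR adjusted p = 0.266). Ifit1 was at 239, 457 and 415 against 180.0, 171 and 237 CPM (log2 difference -0.92, SE 0.26, edgeR adjusted p = 0.288). These 3 of 6 were apart between the groups, as were 8.37% of all 16587 genes with every treated sample lower. Ifit3, at 400.0, 372 and 250 against 183, 156 and 250 CPM, met at the edges (log2 difference -0.80, SE 0.24).

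Ifit1bl1 in the tongue was at 10.3, 55.2 and 35.8 CPM in controls and 12.3, 12.1 and 10.2 CPM with SN-011 (log2 difference -1.54, SE 0.53, edgeR adjusted p = 0.350). Control replicate 1 was within the treated range, while the other controls were well above it. The summed stomach markers were 19.3, 461 and 254 CPM in the same controls and 3.22, 1.94 and 6.65 CPM with SN-011, without overlap, and their part in this difference was not tested. In all, 5 of 6 members were lower at an unadjusted p under 0.05, against 7.33% of all genes, and at an adjusted p of 0.05, 0 of 6 members and 0% of all genes passed. DESeq2 passed Ifit1, Ifit2 and Ifit3b, and edgeR's exact test Ifit2 and Ifit3b. Without control replicate 1, the sample with Xist, edgeR's quasi-likelihood test passed Ifit1bl1 (log2 difference -1.97, adjusted p = 0.00206), Ifit1 (-1.15, 0.00567), Ifit2 (-1.15, 0.00875) and Ifit3b (-0.84, 0.0308). In that fit 2135 of all genes passed, against 0 with all samples. Control replicate 1 also differed from the other tongue controls in makeup. The 4 keratins summed to 12500 CPM in it, against 37400 and 54300 CPM, and to 22700, 23800 and 16000 CPM with SN-011. The 3 endothelial markers summed to 289 CPM in it, against 126 and 128 CPM in the other controls. The part of these differences, or of Xist, in the calls was not tested.

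**Figure D3:**
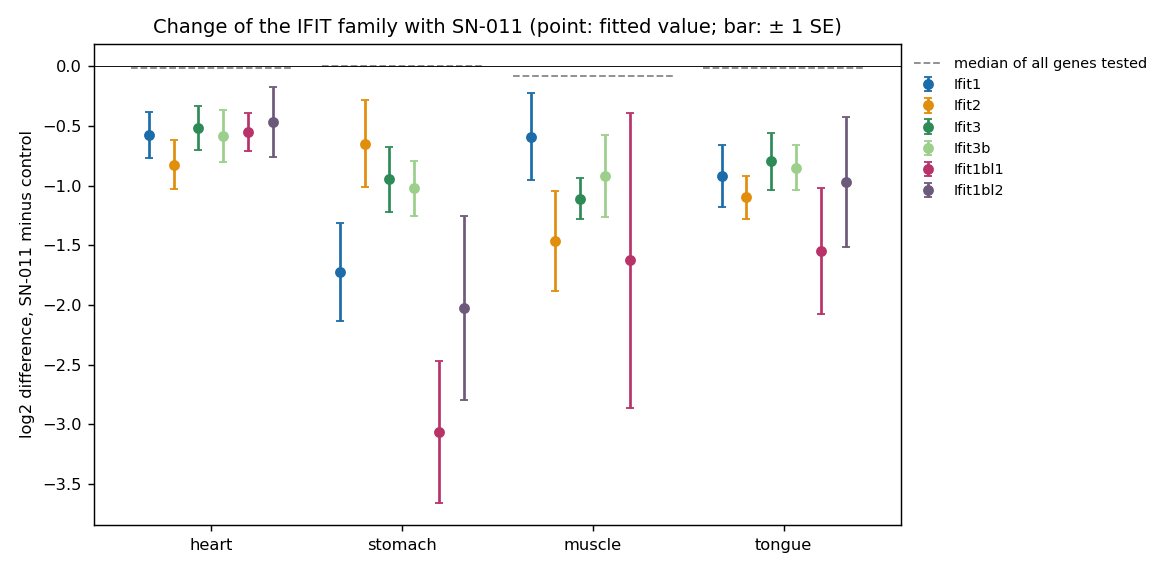
Fitted log2 difference of SN-011 minus control for each member in each tissue, with bars of ± 1 SE; the dashed line is the median of all genes tested in that tissue (-0.08 to 0.00). All 23 points lie below 0, and Ifit1bl1 in the stomach is lowest at -3.06.

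Whether the change with SN-011 differed between tissues was tested as an interaction in the joint fit of all 24 samples. None of the 36 tests passed, and 4 of 36 had an unadjusted p under 0.05: 2 of 6 for heart minus stomach, where 17% of all genes had such a p, 1 of 6 for stomach minus muscle (24.1%) and 1 of 6 for heart minus muscle (6.6%). There were 0 of 6 for stomach minus tongue (15.4%), muscle minus tongue (8.1%) and heart minus tongue (2.83%). The largest was for Ifit1bl1, whose value with SN-011 was less negative in the heart than in the stomach by 2.54 on the log2 scale (95% interval 0.85 to 4.23, edgeR adjusted p = 0.128). Ifit1 had the next lowest p in that pair, at 1.19 (0.26 to 2.11, edgeR adjusted p = 0.195), and was at -1.04 for stomach minus muscle (-1.97 to -0.12, edgeR adjusted p = 0.181). Ifit3 was at 0.68 for heart minus muscle (0.04 to 1.32, edgeR adjusted p = 0.756). Above an unadjusted p of 0.05, stomach minus tongue gave -1.55 for Ifit1bl1 (-3.23 to 0.13, edgeR adjusted p = 0.405). For heart minus stomach the intervals ran from -1.13 to 0.81 for Ifit2, from -0.18 to 1.10 for Ifit3 and from -0.25 to 1.17 for Ifit3b, which does not show that these tissues respond alike. Over all genes, 2.01% passed for heart minus stomach, 6.95% for stomach minus muscle, 0.821% for stomach minus tongue, 0.0355% for muscle minus tongue, 0.00507% for heart minus muscle and 0% for heart minus tongue.

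The makeup of the family within each sample, which does not depend on the scaling between libraries, was read as each member's share of the 6 members' summed RPKM. The sum itself was 497, 428 and 326 RPKM in stomach controls and 105, 111 and 154 with SN-011, and 514, 602 and 687 in heart controls and 346, 358 and 505 with SN-011. In the heart all 6 shares overlapped between the groups. Ifit2 had the largest difference of means there, from 12.9% ± 1.24 to 10.7% ± 1.79, while Ifit3 made up 59.3% ± 1.44 in controls and 61.4% ± 1.38 with SN-011, and Ifit1 15.5% ± 1.23 and 15.6% ± 0.429 (SD, n = 3). In the stomach Ifit1bl1 made up 26.2%, 38.3% and 33.1% in controls and 4.05%, 15% and 16.8% with SN-011. Ifit3 made up 17.9%, 23.1% and 27.3% in stomach controls and 49.0%, 30.7% and 35.0% with SN-011. Ifit3b was the third share without overlap there, at 4.13% ± 1.17 and 6.59% ± 0.927, whereas Ifit1 kept 38.7% ± 11.7 and 39.5% ± 4.59. These 3 of 24 shares reached the exact permutation p of 0.1 that is the smallest possible, and after adjustment over the 24 tests none was below 0.800. That count is near what a p of 0.1 gives by relabelling alone. Shares in a sample sum to a fixed total, so the 3 are not separate results. In level, Ifit3 and Ifit3b were both lower in the stomach with SN-011. Ifit3 was also the largest share of muscle controls (64.8% ± 1.49) and tongue controls (48.3% ± 11.1).

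**Figure D4:**
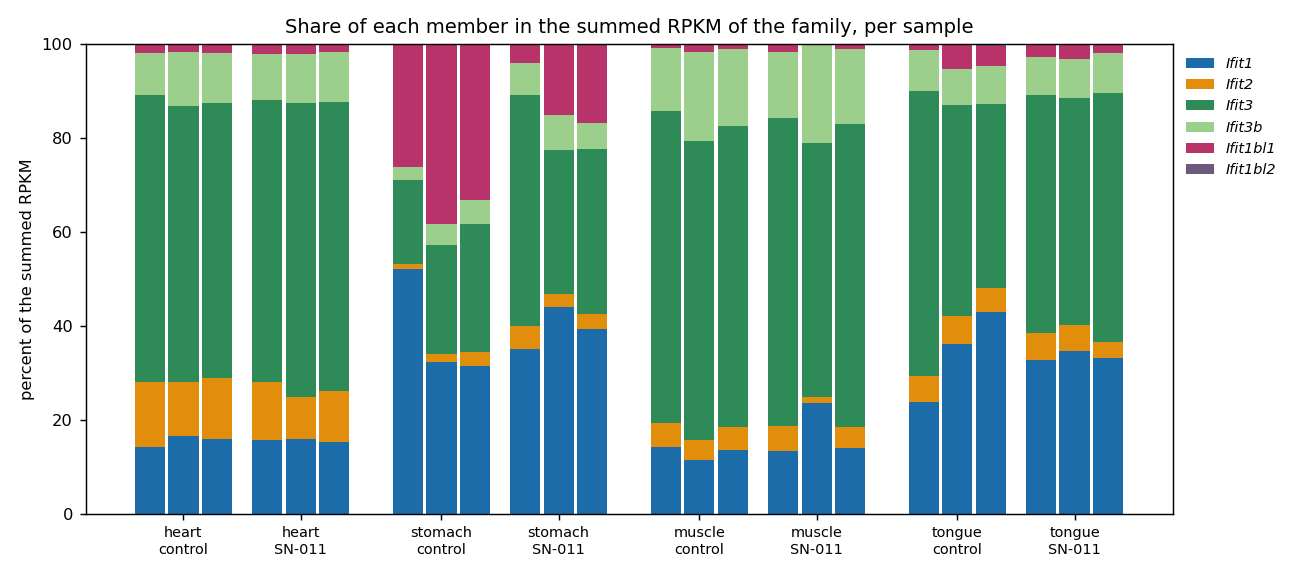
Stacked bars, 1 per sample, of each member's percent of the summed RPKM of the family, grouped by tissue and treatment. Ifit3 fills 58.4% to 62.7% of every heart bar, and Ifit1bl1 fills 26.2% to 38.3% of the stomach control bars and 4.05% to 16.8% of the stomach SN-011 bars; Ifit1bl2 is too small to see.

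The rest of the pathway was read from gene lists. The ligands were near the floor: the 8 type I interferon genes listed, among them Ifnb1, summed to at most 1.34 CPM in any sample, 0 of 8 were tested in any tissue, and Ifnb1 had at most 8 counts. Stat2, a subunit of ISGF3, was at 264 ± 116 CPM in stomach controls and 210.0 ± 62.0 CPM with SN-011 (mean ± SD, n = 3), a log2 difference of -0.33 (SE 0.41). Of the 5 interferon regulatory factors, 0 passed, 3, 1, 2 and 2 were lower and 0, 1, 0 and 1 were higher at an unadjusted p under 0.05 in heart, stomach, muscle and tongue by edgeR's quasi-likelihood test, with medians of -0.61, -0.03, -0.58 and -0.42 in the same order. Irf7, which amplifies interferon output and is itself interferon-induced, was at 1300.0 ± 68.0 against 1300.0 ± 225 CPM in the heart (mean ± SD, n = 3; log2 difference 0.00, SE 0.16), where the 6 IFIT genes had negative values. Its log2 difference was -0.68 (SE 0.33) in the stomach, -0.58 (SE 0.19) in the muscle and -0.42 (SE 0.15) in the tongue. The higher values were those of Irf3, named after its values were seen, at 0.68 (SE 0.22) in the stomach and 0.42 (SE 0.18) in the tongue.

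Of 16 other interferon-stimulated genes, 0 passed an adjusted p of 0.05 in edgeR's test in any tissue. Their median log2 difference was -0.41 in heart, -1.22 in stomach, -0.79 in muscle and -0.67 in tongue, beside IFIT medians of -0.56, -1.37, -1.11 and -0.94 and medians over all genes of -0.01, 0.00, -0.08 and -0.01. At an unadjusted p under 0.05, 8, 14, 7 and 13 of the 16 were lower and 0, 0, 1 and 0 were higher. The higher value was that of Usp18, an inhibitor of interferon signalling named after its values were seen, at 55.9 ± 1.80 against 91.6 ± 7.52 CPM in the muscle (mean ± SD, n = 3; log2 difference 0.71, SE 0.11, edgeR adjusted p = 0.0948). Oasl2 and Bst2, the most abundant of them, had log2 differences of -1.24 (SE 0.38) and -0.99 (SE 0.30) in the stomach. Their values were smaller elsewhere: -0.45 (SE 0.28) and -0.31 (SE 0.18) in the heart, -0.88 (SE 0.26) and -0.63 (SE 0.18) in the muscle. In the tongue they were -0.55 (SE 0.20) and -0.62 (SE 0.18). The 9 genes of cap methylation and of IFIT partners had medians of 0.04, -0.37, 0.25 and 0.01, and 0 passed. The 4 genes beside the cluster had medians of -0.08, -0.49, 0.52 and -0.09, with 0 passing, over the 4, 4, 2 and 3 of them that could be tested. Lipa, which lies next to Ifit2 and encodes lysosomal acid lipase, had a log2 difference of -0.04 (SE 0.18) in the heart and -0.74 (SE 0.22) in the stomach. The medians cover values of both signs: Pank1 was at 0.87 (SE 0.17) in the heart and 0.87 (SE 0.21) in the tongue, and Ch25h, named after its values were seen, at -2.12 (SE 0.41) and -1.72 (SE 0.40).

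The 13 immune markers summed to 124 to 308 CPM in stomach controls and 82.8 to 243 CPM with SN-011, 66.7 to 74.9 and 43.2 to 62.6 CPM in muscle, and 139 to 206 and 111 to 167 CPM in tongue, with 0 passing in any tissue and Ly6g at 0 counts in muscle. The 3 endothelial markers, Pecam1, Cdh5 and Kdr, summed to 503 to 637 CPM in treated hearts, within or below the control range, to 47.2 to 72.8 and 67.8 to 92.8 CPM in control and treated stomach, 173 to 212 and 128 to 151 CPM in muscle, and 126 to 289 and 144 to 147 CPM in tongue, with 0 passing. In the muscle both sums were lower in every treated sample than in every control. Their part in the IFIT differences was not tested.

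The genes whose pattern was most like the family's were found from the deviations of each sample from its tissue mean (log2 CPM, 24 samples, mean of the 6 members). The 5 with the highest Pearson r were Dtx3l (0.97), Parp9 (0.97), Ifih1 (0.96), Cmpk2 (0.95) and Irgm1 (0.95). Cmpk2 is also among the 16 other interferon-stimulated genes above, and Ifih1 encodes the RNA sensor MDA5. The samples share libraries, and treated and control samples both enter, so r describes the joint pattern only. When each group's own mean was removed instead, r was 0.90, 0.89, 0.87, 0.85 and 0.69. The members' own r with their mean, each being part of it, ran from 0.79 for Ifit1 to 0.90 for Ifit1bl1.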

How the data were processed

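PolyA+ RNA of 4 tissues from Trex1-/- mice had been sequenced, with 3 control and 3 SN-011 samples per tissue. The authors deposited raw counts of read pairs per gene, without normalization. The study's methods name Trimmomatic, hisat2 and featureCounts with uniquely mapped pairs, while the submitters' processing notes name HISAT2, HTSeq and the build mm10; versions, and whether counting used strand, are not given in the sources used here. Unique mapping lowers the counts of near-identical copies such as Ifit3 and Ifit3b.

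Of the 54532 gene identifiers, 54495 were found in GENCODE release M21 (GRCm38), which gave symbols, positions and lengths. Tissues were fitted 1 at a time with edgeR 4.0.16 under R 4.3.3: genes were kept by filterByExpr at a minimum count of 10 and total of 15, scaled by TMM and put through the quasi-likelihood test, p-values being adjusted across the tested genes by Benjamini and Hochberg's method at a threshold of 0.05. Levels and changes were compared between tissues in a joint fit of all 24 samples (19731 genes). RPKM used the union of exons. Exact two-sided permutation over 20 relabellings served for the shares. The fits were tested on simulated data in which every gene had the same spread between samples, so that test does not cover the unequal spread of these samples. Total counts were 14253416 to 18443329, and the values cover counting error and the spread between samples only.

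The text names the 6 members, Trex1, the 5 genes most like the family, and from each list the genes past the threshold and the 2 most abundant, though values are printed for only some of the latter. The list of receptor and ISGF3 genes as a whole is not reported here. The members and lists were chosen with earlier results of these data known. Same-numbered control and SN-011 samples correlated at -0.33 to 0.24 as deviations from group means (genes of at least 10 CPM on average), so the numbers were not taken as pairs there. Control samples with the same number in different tissues correlated at -0.14 to 0.57. The value was over 0.1 in 13 of 18 pairs and in all 3 pairs of heart and muscle and of muscle and tongue. The reported fits between tissues still used no pairing, so their p-values leave this likeness out. Pairing by number entered only through the replicate block, which was an alternative. Alternatives were other scalings, filters, tests and gene lengths, a joint fit, summed paralogs, a replicate block and each sample left out. DESeq2 1.42.0, scipy 1.17.1 and Python 3.11.15 were also used. Read-length sequences that occur once in the genome were not counted, since no genome sequence was used here.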

Additional observations from a re-analysis of the deposited data

How the results depend on the processing

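All member values with SN-011 stayed negative under every alternative run (311 on the same side of the threshold, 48 newly past it), and the differences of the change between stomach and another tissue for Ifit1 and Ifit1bl1 neither passed nor changed sign in any of their 96 alternative values. Which members pass depends on the test, the filter and single samples, and the cause was not tested. The number of members past an adjusted p of 0.05 in heart, stomach, muscle and tongue, 0 in each as reported, was 4, 4, 2 and 3 with DESeq2, 1, 4, 2 and 2 with edgeR's exact test, 5, 3, 1 and 0 without a filter on low counts, and 0, 4, 3 and 0 in the joint fit. Over all genes, the numbers of 137, 0, 2 and 0 became 1361, 2389, 880 and 418 with DESeq2, 918, 1834, 479 and 253 with the exact test, 1888, 1368, 110 and 18 without the filter, and 1, 2737, 474 and 4 in the joint fit. Library size alone gave 246 in the heart and 1 in the muscle, and DESeq2's size factors gave 1 in the muscle. Library size alone moved the median of all genes by -0.15 in heart, 0.17 in stomach and -0.23 in muscle on the log2 scale.

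Under a replicate block, the members past the threshold were 1 in the heart (Ifit2), 1 in the stomach (Ifit1bl1), 0 in muscle and 0 in tongue, and all genes past it were 243 in the heart, 181 in the stomach and 0 in the muscle. Between control tissues the block added Ifit2 for muscle and tongue and lost no member. The count of samples, of 3, that correlated best with their own number was 3 for each pair of control tissues except stomach and tongue (1), 1 to 3 for pairs of SN-011 tissues, and 0 to 1 for control against SN-011. For differences of the change between tissues, the block gave 0 genes for heart minus muscle (1 as reported), 0 for muscle minus tongue (7) and 66 for stomach minus tongue (162).

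Leaving out each sample in turn gave 0 to 4 members past the threshold for muscle and for tongue, reached without SN-011 replicate 2 and without control replicate 1 respectively, and 3 to 6 for the control levels of heart minus muscle, the lowest without muscle control replicate 1. All genes past the threshold ranged from 1 to 787 in heart, the highest without control replicate 2 and the lowest without SN-011 replicate 2, 0 to 64 in stomach, 0 to 1103 in muscle and 0 to 2135 in tongue. For the differences of the change they ranged from 0 to 15 for heart minus muscle, 15 to 1121 for heart minus stomach, 0 to 31 for muscle minus tongue, 434 to 2427 for stomach minus muscle and 6 to 792 for stomach minus tongue. Library size alone gave 596 for heart minus stomach and 308 for stomach minus tongue, and no filter gave 5 for heart minus muscle, 15 for muscle minus tongue and 304 for stomach minus tongue.

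For control levels, library size alone gave 5 members for muscle minus tongue and 2 for stomach minus muscle, and reversed the sign of Ifit3b for muscle minus tongue (log2 difference -0.47), Ifit2 for stomach minus muscle (0.32) and Ifit3 for stomach minus muscle (0.18). Ifit1bl1 for heart minus tongue ranged from -0.74 to 0.26 over the samples left out, the highest without tongue control replicate 2. The longest transcript in place of the union of exons moved no RPKM or share by more than 1 SD. Lengths limited to 150-base sequences found in no other gene's transcripts, chosen after seeing the data, moved 9 of 24 control RPKM values and 8 of 24 shares by more than 1 SD; Ifit3 in the heart became 478 RPKM in place of 356. Of the 5 genes most like the family, 4 stayed with Spearman's rho and 3 when group means were removed. Depth limits Ifit1bl2 in muscle (0 to 19 counts) and in SN-011 stomach (3 to 11 counts), and Ifit1bl1 in SN-011 muscle (0 to 28 counts).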
